A study of Homo sapiens with 4 samples.

Results

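The synaptic vesicle docking and fusion genes CPLX1, CPLX2, STX1A, SNAP25, UNC13A, SYT1, SYT4, NAPB, SYP and SYN1 were followed in 4 HEK293 libraries. They are 10 of the 40188 genes with a value, found by matching Ensembl identifiers to symbols. They had been selected on their levels in these same libraries, several because they were high in the SRRM3 and SRRM4 libraries and others because they were not. Their differences from the empty vector are therefore a description, and no test was made of them. Of the 10 genes, 6 were near 0 in the empty vector and higher in both SRRM libraries, 3 were already present and were 2- to 6-fold higher, and SYT1 stayed under 0.25 cRPKM in every library.

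The libraries are polyA-selected, stranded RNA-seq of HEK293 cells, a human embryonic kidney line. Each stable line carried a doxycycline-inducible construct that was empty (EmptyV) or held MSI1, an RNA-binding protein, SRRM3 or SRRM4, a pair of related splicing regulators that promote inclusion of neural microexons. All 4 lines, the empty vector included, received doxycycline at 1 µg/mL for 24 h. There was 1 library for each line, and the sources used here do not give whether a line came from 1 clone. A difference between libraries cannot be told apart from a difference between lines, and no value has a replicate check.

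In neurons, fusion of a vesicle with the plasma membrane is driven by SNARE proteins: syntaxin-1 and SNAP-25 on the plasma membrane pair with synaptobrevin on the vesicle. Munc13 proteins prime vesicles by opening syntaxin, complexins clamp and support the assembled SNARE complex, and synaptotagmins couple fusion to calcium. NSF and the SNAP adaptor proteins take the complex apart afterwards, while synaptophysin sits in the vesicle membrane and synapsins tether vesicles in the reserve pool. Many of these genes are silenced outside neurons by REST, a repressor that binds a DNA element called RE1.

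The start regions of the genes are shown because this element is the best known shared control of such genes. Its part in the levels described here was not tested. RefSeq promoter windows (GRCh38.p14, 250 bases before to 50 bases after the start) were found for CPLX2, STX1A, UNC13A, SYT1, SYT4, NAPB, SYP and SYN1, 8 of the 10. They were searched on both strands for the RE1 segments TTCAGCACC and GGACAG, 2 bases apart, and for the cyclic AMP response element (CRE) TGACGTCA, none of which overlaps another. The 164 bases before the SYN1 transcript (chrX:47619944-47620107, minus strand) held both RE1 segments and the CRE, in capitals:
SYN1 promoter: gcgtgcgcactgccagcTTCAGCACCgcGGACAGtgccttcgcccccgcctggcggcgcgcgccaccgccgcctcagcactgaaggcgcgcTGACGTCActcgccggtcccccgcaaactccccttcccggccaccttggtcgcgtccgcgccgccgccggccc
In this window the RE1 segments lie at bases -233 to -217 and the CRE at -159 to -152, counted from the RefSeq start. The RE1 segments at this spacing were found in 5 of 35116 promoter windows (0.0142%) and the CRE in 649 (1.85%). The windows of CPLX2, STX1A, UNC13A, SYT1, SYT4, NAPB and SYP held neither the RE1 pair at this spacing nor the CRE. Only exact letters were matched, and outside the windows the RE1 pair was sought in protein-coding transcripts alone. Other sites of these genes could therefore be missed.

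A wider spacing of 3 to 10 bases, chosen after the sequences were seen, added UNC13A. It was met in 10 of the 35116 windows (0.0285%). Segments at the spacing of 2 were also found in the transcript of SYT4, in exon 1 and outside the coding sequence, and in 21 of 19669 protein-coding genes (0.107%) in GENCODE 29. The 3 matches are set side by side below, with the segments in capitals, because they hold the same pair of segments, at a spacing of 2 in SYN1 and SYT4 and of 8 in UNC13A. The SYN1 match is at chrX:47620070-47620090 (minus), the UNC13A match at chr19:17688340-17688366 (plus, opposite to the gene), and the SYT4 match at chr18:43277293-43277313 (minus):
SYN1: TTCAGCACCgcGGACAGtgcc
UNC13A: TTCAGCACCgggggcgcGGACAGcgcc
SYT4: TTCAGCACCtcGGACAGaaca
These matches are descriptions of letters and no measure of binding was made. REST itself had a level of 7.93 cRPKM with the empty vector, 7.74 with MSI1, 7.13 with SRRM3 and 6.50 with SRRM4, lowest in SRRM4 with a ratio to the empty vector of 0.819 (0.779 to 0.861). Gene-level values do not show which exons its transcripts hold.

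Levels below are cRPKM, a corrected RPKM that divides reads by gene length and library size, and are given with the empty vector first, then MSI1, then SRRM3 and last SRRM4. Ratios are of read counts scaled to library totals of 60288244 to 63003121 reads, each with its exact 95% interval, which covers counting error of that pair of libraries only. A gene was called at a log2 fold of at least 1 in either direction, after 0.5 was added to each cRPKM, if its mean over the 4 libraries was at least 1 cRPKM. SRRM3 and SRRM4 transcripts were at 38.53 and 63.78 cRPKM in their own libraries against 0.49 and 0.39 in the empty vector, and MSI1 at 62.43 against 8.38. The empty vector and MSI1 libraries differed in SRRM4, with 201 and 6 reads, a ratio of MSI1 to the empty vector of 0.0294 (0.0107 to 0.0652). The SRRM3 library had 95 SRRM4 reads. The part of this difference in the ratios below was not tested. Across all genes tested the median log2 fold over the empty vector was within 0.016 of 0 in each comparison.

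**Figure D1:**
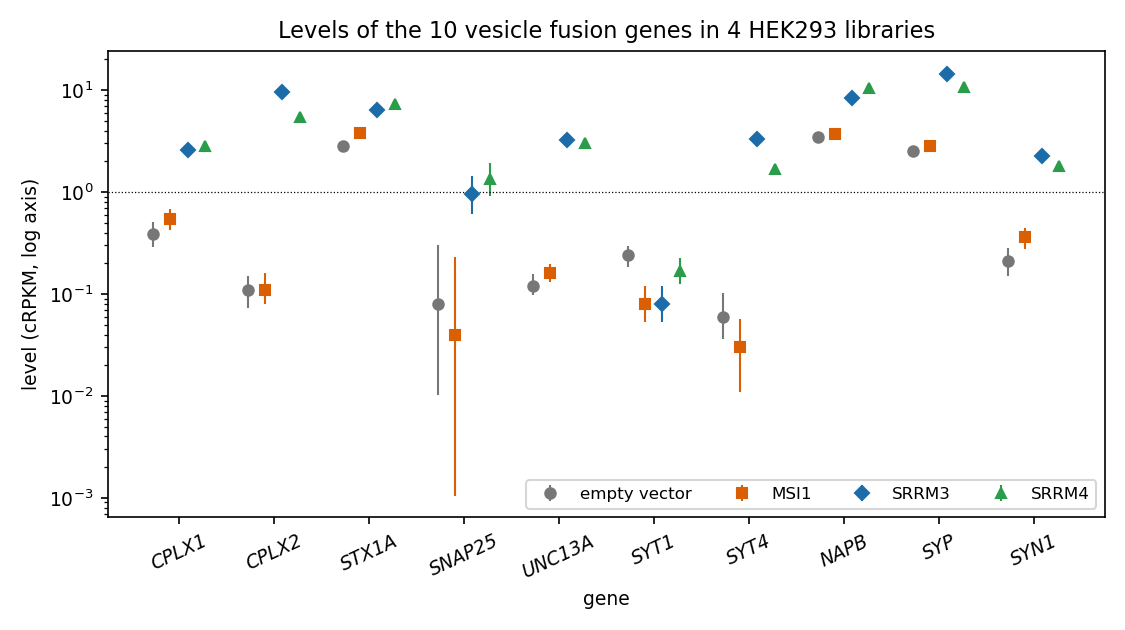
Level of each of the 10 genes in each of the 4 libraries, in cRPKM on a log axis, with bars for the exact 95% Poisson interval of the count. The SRRM3 and SRRM4 points lie above the other libraries for every gene except SYT1, and the dotted line marks 1 cRPKM.

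CPLX2 (ENSG00000145920; chromosome 5, 175796310 to 175884020, plus strand), which encodes complexin-2, was at 0.11, 0.11, 9.54 and 5.48 cRPKM, from 33, 36, 2984 and 1642 reads. The empty vector and MSI1 libraries were equally low and both SRRM libraries were high, with no overlap of their intervals. The ratio to the empty vector was 89.3 (63.4 to 130) in SRRM3 and 51.2 (36.3 to 74.7) in SRRM4, and 1.07 (0.651 to 1.78) in MSI1. As RNA of whole cultures was measured, a few cells with much CPLX2 and many cells with little cannot be told apart, here and for the genes that follow.

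CPLX1 (ENSG00000168993; chromosome 4, 784957 to 826198, minus strand), encoding complexin-1, was at 0.39, 0.54, 2.57 and 2.82 cRPKM from 51, 72, 344 and 363 reads. Both SRRM libraries were higher than both others, by ratios to the empty vector of 6.66 (4.95 to 9.12) and 7.33 (5.46 to 10.0). CPLX1 RNA was the more abundant of the pair in the empty vector and CPLX2 RNA in the SRRM libraries. On the cRPKM scale CPLX1 made up 72.2% of the 4 complexins in the empty vector and 20.9% in SRRM3, while CPLX2 went from 20.4% to 77.7% (64.8% in SRRM4). CPLX3, a retinal complexin, had 2, 1, 19 and 16 reads and stayed at or below 0.15 cRPKM. CPLX4 was at or below 0.06 cRPKM in each library.

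Of the plasma membrane SNAREs, STX1A (ENSG00000106089; chromosome 7, 73699206 to 73719672, minus strand), encoding syntaxin-1A, was at 2.81, 3.83, 6.40 and 7.33 cRPKM. It was lowest in the empty vector, intermediate in MSI1 and highest in the SRRM libraries. The ratios to the empty vector were 2.28 (2.01 to 2.59) in SRRM3, 2.61 (2.30 to 2.96) in SRRM4 and 1.36 (1.19 to 1.57) in MSI1. Set against MSI1 in place of the empty vector they were 1.67 and 1.91, log2 folds of 0.67 and 0.85, so that STX1A no longer met the 2-fold rule. Of the 50-base stretches of its longest coding transcript, 5.52% also lie in BUD23, an overlapping gene on the opposite strand at 61.80 to 69.69 cRPKM. The sources used here do not give whether counting used strand, so reads in that stretch are uncertain.

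SNAP25 (ENSG00000132639; chromosome 20, 10218830 to 10307418, plus strand), the partner of syntaxin-1A, had 2, 1, 23 and 31 reads, or 0.08, 0.04, 0.96 and 1.35 cRPKM. Both SRRM libraries were above both others, though all counts were small. The ratios of 11.4 (2.81 to 99.3) and 16.0 (4.06 to 138) have wide intervals. With a mean of 0.608 cRPKM it was left out of the calls. The length implied by its count and cRPKM was 382 positions, against 2004 positions for a 50-base read on its longest coding transcript, whereas the implied lengths of the other 9 genes were close to theirs (4973 against 4974 for CPLX2). Its cRPKM is therefore hard to set beside that of other genes.

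The broadly expressed relatives of these SNAREs were more abundant and were not called. SNAP23 was at 28.68, 27.24, 26.33 and 26.08 cRPKM. STX3 was at 20.59, 28.60, 12.93 and 18.37 cRPKM, lower in SRRM3 with a ratio of 0.628 (0.598 to 0.659). STX2 and STX4 lay at 8.58 to 9.84 and 15.60 to 17.17 cRPKM.

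UNC13A (ENSG00000130477; chromosome 19, 17601328 to 17688365, minus strand), encoding the neuronal priming factor Munc13-1, was at 0.12, 0.16, 3.23 and 3.02 cRPKM from 75, 98, 1971 and 1771 reads. The SRRM libraries were alike and both lay far above the empty vector and MSI1. The ratios to the empty vector were 25.9 (20.6 to 33.1) and 24.3 (19.3 to 31.1). The more widely expressed UNC13B was at 12.44, 11.71, 11.74 and 12.11 cRPKM, a ratio of 0.944 (0.906 to 0.983) in SRRM3. UNC13A accordingly went from 0.944% of the Munc13 family to 21.4% and 19.8%. UNC13D, used in secretion by blood cells, stayed at or below 0.16 cRPKM.

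The 2 synaptotagmins differed from each other. SYT4 (ENSG00000132872; chromosome 18, 43267878 to 43277650, minus strand), a synaptotagmin of dense-core vesicles, was at 0.06, 0.03, 3.31 and 1.68 cRPKM from 16, 7, 845 and 411 reads. Both SRRM libraries were high, SRRM3 above SRRM4, with ratios to the empty vector of 52.1 (31.9 to 91.6) and 26.5 (16.1 to 46.7). Its closest relative SYT11 was at 2.51, 4.30, 3.01 and 2.39 cRPKM, and SYT4 went from 2.33% of the pair to 52.4% and 41.3%.

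SYT1 (ENSG00000067715; chromosome 12, 78863993 to 79452008, plus strand), the main calcium sensor of fast transmitter release, was at 0.24, 0.08, 0.08 and 0.17 cRPKM from 72, 25, 25 and 50 reads. It was highest in the empty vector, and the MSI1 and SRRM3 libraries were alike and lowest. The ratio to the empty vector was 0.343 (0.208 to 0.547) in SRRM3, 0.342 (0.208 to 0.546) in MSI1 and 0.715 (0.488 to 1.04) in SRRM4. Its mean of 0.143 cRPKM left it out of the calls. Of the other synaptotagmins that sense calcium for fast release, SYT2 was at 0.19, 0.34, 0.60 and 0.30 cRPKM and SYT9 at 7.35, 7.10, 7.48 and 6.93, so that SYT9 was the most abundant of the 3 in every library.

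**Figure D2:**
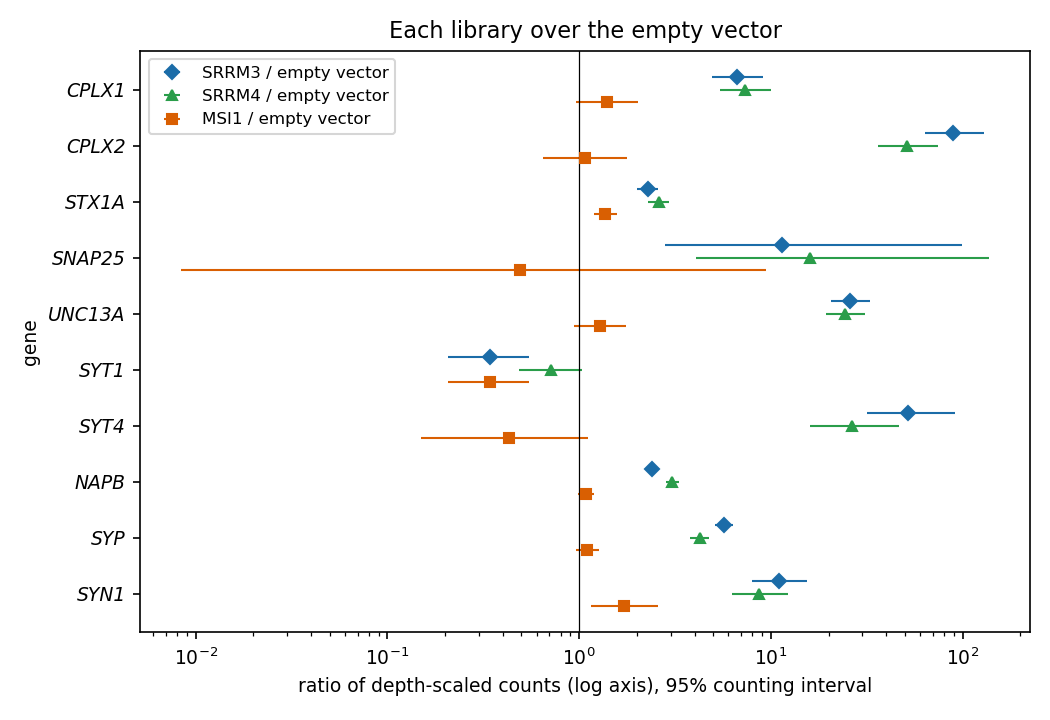
Ratio of depth-scaled counts of each library to the empty vector on a log axis, with exact 95% counting intervals. SRRM3 and SRRM4 intervals lie above 1 for every gene except SYT1, while the MSI1 intervals lie above 1 for STX1A and SYN1 and below 1 for SYT1.

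NAPB (ENSG00000125814; chromosome 20, 23374519 to 23421519, minus strand), the brain form of the SNAP adaptor that recruits NSF, was at 3.44, 3.74, 8.32 and 10.55 cRPKM from 810, 893, 1981 and 2409 reads. It was present in all 4 libraries and higher in both SRRM libraries, SRRM4 above SRRM3. The ratios to the empty vector were 2.41 (2.22 to 2.62) and 3.06 (2.83 to 3.32). Its ubiquitous relative NAPA was at 36.32, 39.12, 36.61 and 38.02 cRPKM, and NSF at 49.25 to 51.35. The NAPB share of the pair went from 8.65% to 18.5% and 21.7%.

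SYP (ENSG00000102003; chromosome X, 49187804 to 49200259, minus strand), encoding synaptophysin, was at 2.55, 2.81, 14.49 and 10.84 cRPKM from 387, 433, 2232 and 1601 reads. It was the most abundant of the 10 genes in both SRRM libraries, and the empty vector and MSI1 libraries were alike. The ratios to the empty vector were 5.69 (5.11 to 6.36) and 4.26 (3.81 to 4.77). SYPL1, the form found in most tissues, was at 40.58, 42.98, 31.17 and 27.63 cRPKM, lower in both SRRM libraries with ratios of 0.768 (0.737 to 0.800) and 0.681 (0.652 to 0.711). SYP went from 5.62% of the synaptophysin family to 30.0% and 26.3%.

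SYN1 (ENSG00000008056; chromosome X, 47571898 to 47619943, minus strand), encoding synapsin-1, was at 0.21, 0.36, 2.28 and 1.81 cRPKM from 42, 73, 467 and 355 reads. The SRRM libraries were highest and MSI1 lay between them and the empty vector. The ratios to the empty vector were 11.0 (7.99 to 15.4) in SRRM3, 8.70 (6.31 to 12.3) in SRRM4 and 1.71 (1.16 to 2.57) in MSI1. SYN2 was at 2.78 to 3.53 cRPKM and SYN3 at or below 0.16, and the SYN1 share of the synapsins went from 6.71% to 38.4% and 35.6%. Of the 50-base stretches of SYN1, 7.66% also lie in the transcript AL009172.2 on the same strand, and reads there are uncertain.

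**Figure D3:**
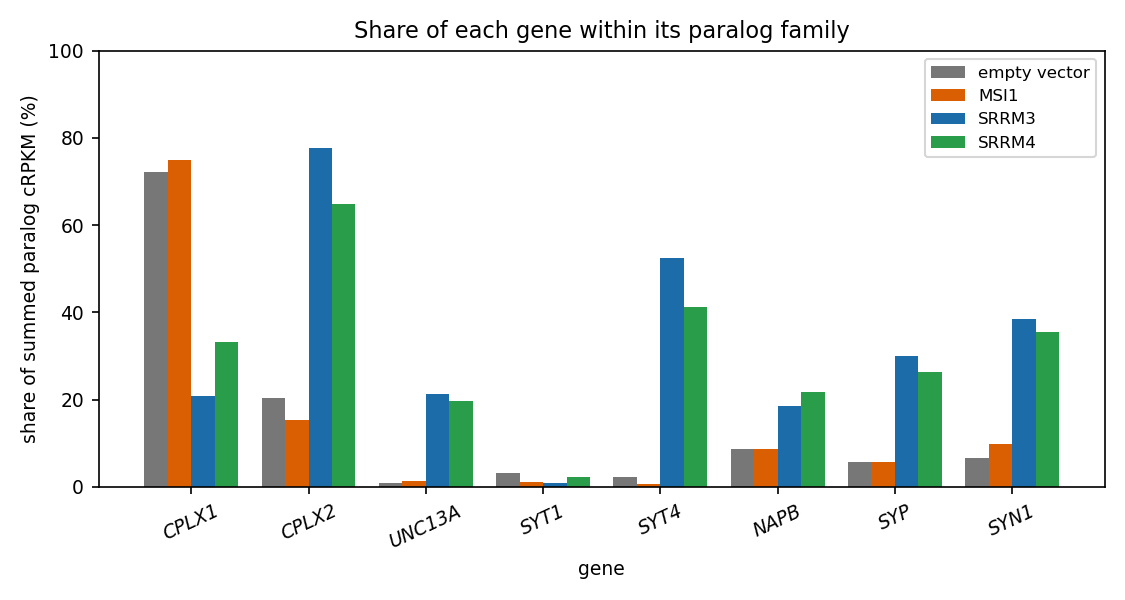
Share of 8 of the genes, all but STX1A and SNAP25, in the summed cRPKM of their paralog families in the 4 libraries, in percent. CPLX2, SYT4 and SYN1 reach the highest shares in SRRM3, at 77.7%, 52.4% and 38.4%, and SYT1 stays under 5% in every library.

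By the 2-fold rule 8 of the 10 genes passed the filter and all 8 of these were called higher in SRRM3, against a background of 0.582% of 12705 genes called higher and 0.299% called lower. The same 8 were called higher in SRRM4, against 0.551% and 0.220%. These 2 comparisons chose the genes and share the empty vector library, so nothing is read from the counts. In addition CPLX1, CPLX2, UNC13A, SYT4 and SYN1 passed the filter only through the SRRM libraries, each being under 1 cRPKM in the others. SYP, NAPB and STX1A were above 1 cRPKM in the empty vector itself. When 2 cRPKM in place of 0.5 were added to each level, 4 genes were called in SRRM3 (CPLX2, SYP, SYT4 and UNC13A) and 5 in SRRM4 (CPLX1, CPLX2, NAPB, SYP and UNC13A).

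Another count asked for a 2-fold higher level in SRRM3 and in SRRM4 than in the empty vector and than in MSI1. As the genes had been chosen on these same levels, it is a description too. The rule was met by 7 of the 8 genes that passed the filter, all except STX1A, and by 0.244% of 12703 genes tested. In MSI1 over the empty vector none of the 8 was called, where the background was 0.299% higher and 0.370% lower. Over all 10 genes the MSI1 counting interval lay above 1 for STX1A and SYN1 and below 1 for SYT1. The summed level of the 10 genes was 10.0, 11.7, 51.2 and 45 cRPKM.

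The order of the levels differed between libraries. In the empty vector NAPB, STX1A and SYP led, with overlapping counting intervals for STX1A (2.53 to 3.12) and SYP (2.30 to 2.81), and the other 7 genes were below 0.5 cRPKM. In SRRM3 the order was SYP, CPLX2, NAPB, STX1A, SYT4, UNC13A, CPLX1, SYN1, SNAP25 and SYT1, in which SYT4 (3.09 to 3.54) and UNC13A (3.08 to 3.37) overlapped, as did CPLX1 (2.30 to 2.86) and SYN1 (2.08 to 2.50). In SRRM4 the order was SYP, NAPB, STX1A, CPLX2, UNC13A, CPLX1, SYN1, SYT4, SNAP25 and SYT1, where SYP (10.3 to 11.4) and NAPB (10.1 to 11) overlapped, as did UNC13A and CPLX1, SYN1 and SYT4, and SYT4 and SNAP25. SYT1 was the lowest of the 10 in both SRRM libraries. In the empty vector and MSI1 SYT4 had the lowest value, inside the wide interval of SNAP25, whose length is in doubt.

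SRRM4 and SRRM3 were then compared directly, a contrast with no shared control. None of the 8 genes was called, where 0.276% of 12704 genes were called higher and 0.236% lower. Of the 10 counting intervals, 5 lay below 1 and 3 above, and the share of such intervals over all genes was not computed. SYT4 had a ratio of SRRM4 to SRRM3 of 0.507 (0.450 to 0.572), CPLX2 0.574 (0.540 to 0.610), SYP 0.748 (0.701 to 0.798) and SYN1 0.793 (0.689 to 0.912), all lower in SRRM4. NAPB at 1.27 (1.19 to 1.35) and STX1A at 1.14 (1.04 to 1.26) were higher in SRRM4, as was SYT1, below the filter, at 2.09 (1.27 to 3.52) from 25 and 50 reads. UNC13A had a ratio of 0.937, with an upper interval bound just under 1. The ratio was 1.10 (0.947 to 1.28) for CPLX1 and 1.41 (0.794 to 2.53) for SNAP25, intervals that include 1. SRRM4 transcripts were at 63.78 cRPKM from 32240 reads in the SRRM4 library, and SRRM3 transcripts at 38.53 from 8634 reads in the SRRM3 library. Their implied lengths were 8384 and 3563, so these levels are hard to compare, and construct and endogenous reads are not separated. SRRM3 was also at 1.39 cRPKM in the SRRM4 library, a ratio to the empty vector of 2.82 (2.25 to 3.54). The part of these differences in the ratios above was not tested.

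**Figure D4:**
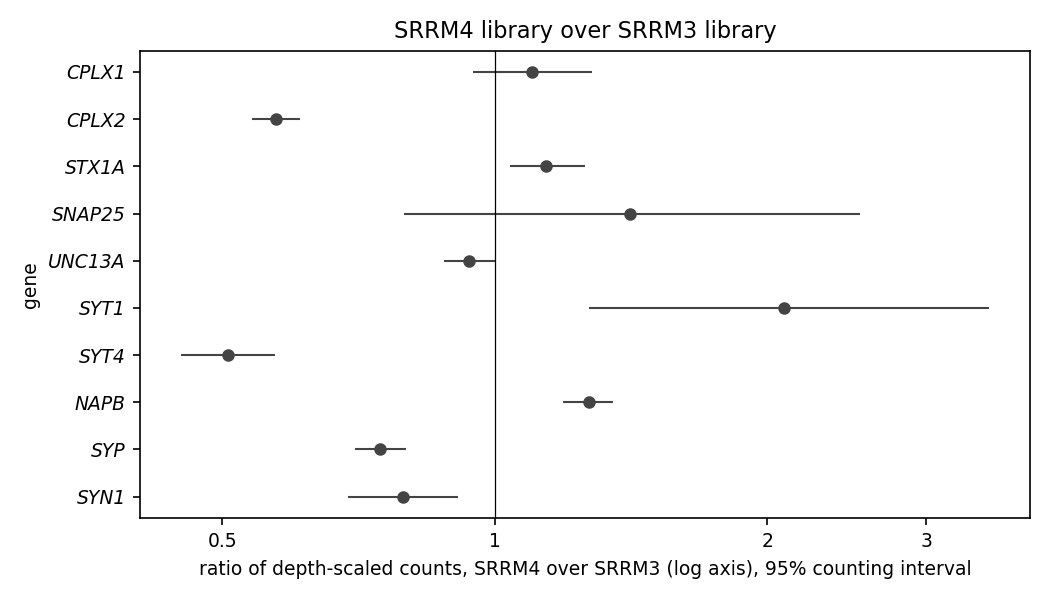
Ratio of depth-scaled counts of the SRRM4 library to the SRRM3 library for the 10 genes on a log axis, with exact 95% counting intervals. The intervals of CPLX2, SYT4, SYP and SYN1 lie below 1, that of UNC13A ends just under 1, and those of STX1A, SYT1 and NAPB lie above 1.

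Of 107 genes of the wider exocytosis machinery in 10 roles, 64 passed the filter, and in each SRRM library 9 were called higher and none lower: the 8 genes above and SCAMP5, a secretory carrier protein enriched in brain. The shares over all genes tested were 0.582% higher and 0.299% lower in SRRM3 and 0.551% and 0.220% in SRRM4. Without the 10 genes, 56 passed and 1 of them was called, with a median log2 fold of 0.047 in SRRM3 and 0.001 in SRRM4, beside 0.003 and -0.003 over all genes tested. Genes went both ways: of the 97, 36 counting intervals lay above 1 and 16 below in SRRM3, and 25 and 16 in SRRM4. In MSI1 they were 36 and 14. The share of such intervals over all genes was not computed, so nothing is read from these counts. In MSI1 the median of the 56 was 0.126, beside 0.016 over all genes. SCAMP5 was at 3.06, 5.43, 8.96 and 8.03 cRPKM, with ratios to the empty vector of 2.93 (2.68 to 3.21) in SRRM3, 2.63 (2.40 to 2.88) in SRRM4 and 1.78 in MSI1. Set against MSI1 its log2 folds were 0.67 and 0.52 and it was not called, while STX3 was called lower in SRRM3 at -1.12, a ratio of 0.452 (0.431 to 0.473). Just inside the threshold in SRRM3 was STX1A at a log2 fold of 1.06 and just outside it SYT14 at 0.54. In SRRM4 these genes were at 1.24 and 0.49.

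By role, 1 of 13 SNAREs that passed was called (STX1A), 1 of 8 priming factors (UNC13A), 1 of 6 synaptotagmins (SYT4), 1 of 4 disassembly factors (NAPB), 2 of 12 vesicle membrane proteins (SYP and SCAMP5), 1 of 2 synapsins (SYN1) and both complexins that passed, in each SRRM library, where 0.582% and 0.551% of all genes were called higher. All of these but SCAMP5 had been selected on these values, so the counts by role are a description. None of 6 active zone scaffold genes and none of 11 genes of the Rab3 and Rab27 cycle was called. VAMP3 and VAMP8, the most abundant vesicle SNAREs here, were at 66.30 to 69.61 and 56.08 to 73.53 cRPKM. ERC1 and PPFIA1, active zone scaffold genes that are also widely expressed, were at 11.80 to 14.10 and 17.16 to 19.14 cRPKM. RAB3GAP1 and RAB3GAP2, regulators of Rab3, were at 22.95 to 26.98 and 13.89 to 16.63 cRPKM. None of the 7 vesicular transmitter transporters passed the filter. Among genes below the filter and chosen after their values were seen, RAB3C was at 0.07, 0.05, 0.65 and 0.41 cRPKM, with ratios to the empty vector of 9.63 (6.86 to 13.9) and 6.07 (4.27 to 8.85). The scaffold gene BSN was at 0.48, 0.52, 1.17 and 1.38 cRPKM, with ratios of 2.44 (2.19 to 2.72) and 2.89 (2.60 to 3.22), and was named in the same way.

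**Figure D5:**
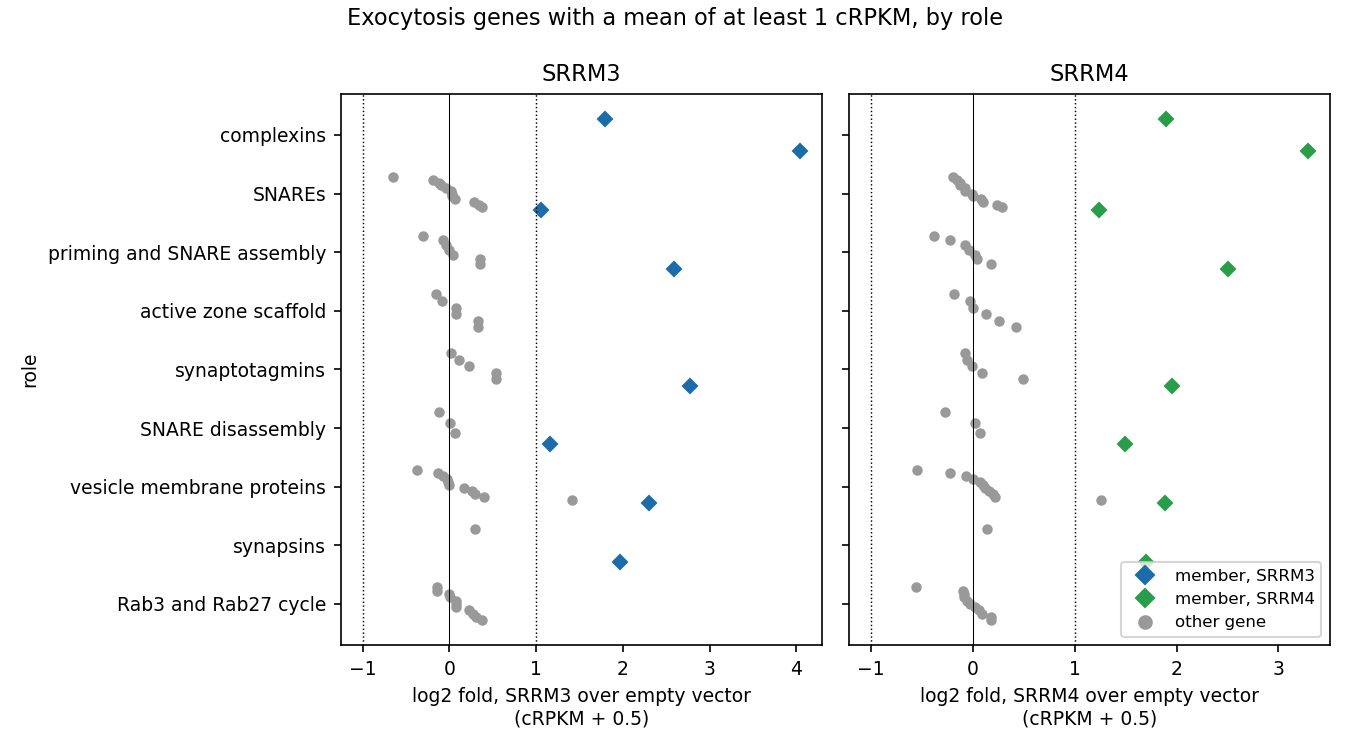
Log2 fold of SRRM3 (left) and SRRM4 (right) over the empty vector for the 64 exocytosis genes with a mean of at least 1 cRPKM, by role, on cRPKM with 0.5 added. Coloured diamonds are the 8 genes described here that passed, grey points the other 56, and the dotted lines mark 2-fold. SCAMP5 is the 1 grey point past the line on each side.

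The genes most like each of the 8 were taken as the 3 with the smallest distance between the log2 levels of the 4 libraries, each centred on its own mean. Distances were 0.04 for CPLX1 and CELSR3, 0.05 for STX1A and CARMIL2, 0.10 for SYN1 and NMNAT2, 0.14 for UNC13A and SNORD58C, 0.19 for SYT4 and CHRNB2, 0.22 for SYP and RUNDC3A, 0.25 for NAPB and PARP6 and 0.26 for CPLX2 and SNORD36C. SNORD58C and SNORD36C encode small nucleolar RNAs and were listed at 0.00 cRPKM in the empty vector and MSI1. In SRRM3 and SRRM4 they were at 2.12 and 2.21 cRPKM (SNORD58C) and at 6.55 and 4.88 cRPKM (SNORD36C). Their read counts were not examined, so these levels may rest on few reads. CPLX1 and SYN1 were the closest pair among the 8, at 0.27. CHGA and CHGB, secreted proteins of dense-core granules, were among the 3 nearest of CPLX2 and UNC13A. CHGA was at 0.76, 1.39, 20.81 and 9.70 cRPKM and CHGB at 1.00, 1.02, 11.02 and 8.88.

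Markers of HEK293 cells summed to 1490, 1770, 1430 and 1550 cRPKM over 7 genes, none of them at 0 in all libraries. Most of this sum was VIM, at 973.50 cRPKM in the empty vector. VIM, KRT8, KRT18 and CDH2 had ratios to the empty vector of 0.895 to 1.04 in the SRRM libraries. The neurofilament genes of the list differed: INA was at 12.61, 20.24, 26.42 and 22.01 cRPKM, a log2 fold of 1.04 in SRRM3. NEFM was at 11.32, 15.73, 19.44 and 11.84, and PAX2 at 0.83, 1.05, 1.25 and 0.73. Of 10 neuron markers 3 were at 1 cRPKM or more in every library (TUBB3, MAP2 and SNAP91), and the list summed to 16.8, 27, 23.5 and 19.6 cRPKM. The other 7 were at or below 0.29 cRPKM in every library, with DCX at 0 in all 4. The highest of these, STMN2, had 1, 1, 40 and 9 reads, with ratios to the empty vector of 39.5 (6.69 to 1600) in SRRM3 and 9.27 (1.28 to 406) in SRRM4. ELAVL3 had 1, 9, 6 and 8 reads and NEUROD1 0, 0, 6 and 2. The 5 neuroendocrine markers summed to 3.55, 4.15, 35 and 20.5 cRPKM, with 2, 3, 4 and 3 of them at 1 cRPKM or more. Their sum was thus higher in the libraries where the fusion genes were higher, and their part in the result was not tested. Glial, fibroblast and blood markers summed to at most 2.34, 4.60 and 0.25 cRPKM in any library.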

How the data were processed

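PolyA-selected RNA of 4 HEK293 lines was analysed from 1 table per library, with groups taken from the labels. Each table holds, by Ensembl ID, the deposited cRPKM (a corrected RPKM with 2 decimals) and the deposited read count in whole numbers. Per the submitters' processing notes the genome is GRCh38 (hg38). The sources used here give no aligner, counter or strand setting. Over 3781 genes at 20 cRPKM or more, the deposited RPKM values equalled count over library total and a gene-specific length within 0.047%.

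The tables list 41614 genes, and 1426 of them have no value and were dropped. A symbol was matched to 39633 of the 40188 others, with coordinates from GENCODE 29. The genes followed, the wider list, its roles, the paralog families and the markers were chosen with earlier results of these data known. Named genes were the 10 genes, their paralogs, list genes called with an interval excluding 1, the 2 most abundant per role and the 3 nearest in pattern per gene. Of the last 2 kinds only some are printed. Some paralog and marker values are not reported here. With 1 library per group no p-value was computed. Intervals at 95% are Clopper-Pearson limits of the count ratio conditional on its sum, which are exact, and cover counting error only, since reads are not independent molecules. A floor of 3 counts is 0.0476 to 0.0498 CPM. Induced genes were left out of the background of their comparison. The count ratio and fold rule were run on simulated Poisson counts. These hold no variation between lines or libraries, so the run checks the calculation only.

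Alternatives were pseudocounts of 0.1 and 2, other filters, median centring, CPM with TMM factors from edgeR, other fold rules and MSI1 as control. The tools were R 4.3.3 with edgeR 4.0.16, and Python 3.11.15 with scipy 1.17.1, pandas 2.3.3, numpy 2.4.6 and matplotlib 3.10.9.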

Additional observations from a re-analysis of the deposited data

Results flagged for a closer look

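ERC1, a widely expressed scaffold gene of the wider list, lay on opposite sides of the empty vector in the SRRM libraries, with a ratio of 1.05 (1.02 to 1.08) in SRRM3 and 0.878 (0.850 to 0.908) in SRRM4. Both differ from 1 by little and there was 1 library on each side, so the difference between the libraries was not tested.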

How the results depend on the processing

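No paired analysis was possible because each group has 1 library, and for the same reason no replicate could be left out. With a pseudocount of 2 the count of the 10 genes called was 4 in SRRM3 and 5 in SRRM4, that of the wider list 5 and 5, and 3 genes were higher in both SRRM libraries than in both others. With a mean of at least 5 cRPKM these counts were 3, 3, 4, 4 and 2, as 3 of the 10 genes then passed. The counts were again 3, 3, 4, 4 and 2 when 1 cRPKM was asked of the empty vector in place of the mean, a filter chosen after seeing the data. With a 1.5-fold rule 2 of the 10 genes were called in SRRM4 over SRRM3 (CPLX2 and SYT4, both lower), also 2 in the wider list, and 2 wider-list genes were called in MSI1 (SCAMP5 and SYT11). With MSI1 as control 7 of the 10 genes were called in each SRRM library, STX1A being lost. The wider list then had 8 called in SRRM3, with STX3 lower, and 7 in SRRM4, SCAMP5 being lost in both. Of 180 log2 folds of single genes under the alternatives, 174 kept their sign. From the main value 39 moved by at least the log2 width of the counting interval divided by 2. This measures the size of the shift only, as the interval is of count ratios without a pseudocount. No called value changed sign. Genes under about 1 cRPKM, SNAP25 and SYT1 first, are limited by counts of 1 to 72 reads.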
